A study of Mus musculus with 2 samples.

Results

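The 8 genes described here encode the nucleotide-sensing apparatus of microglia: the P2Y receptors P2ry12, P2ry13 and P2ry6, the P2X channels P2rx4 and P2rx7, the ectonucleotidase Entpd1 (CD39), the P2Y-like receptor Gpr34 and the adenosine receptor Adora3. They were chosen by name, and all 8 had a row among the 32285 genes of the count table. Microglia were sorted as live CD45lo CD11b+ cells from the cortex and hippocampus of APPswe/PS1δE9 (PSAPP) mice, an amyloid-depositing transgenic line. Both groups carried the transgenes, and mice without them were not analysed here. Mice of both sexes received vehicle (VEH, methylcellulose in PBS) or the dual orexin receptor antagonist lemborexant (LEM, 30 mg/kg daily) by oral gavage for 30 days from 9 months of age and were analysed at 10 months. Cells of 5 mice were pooled into 1 single-cell 5′ library per group, so no difference could be tested against the spread between mice and no p-value is given. Every interval covers counting error only.

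Microglia read damage and activity through extracellular nucleotides. ATP opens the P2X channels, its hydrolysis by CD39 yields ADP and then AMP, and ADP acts on the Gi-coupled P2RY12 and P2RY13, which steer process extension towards injured or active cells. UDP acts on the Gq-coupled P2RY6, a trigger of phagocytosis, whereas adenosine formed further along the chain acts on receptors such as ADORA3. GPR34 belongs to the same receptor family but is known as a receptor for lysophosphatidylserine. P2ry12 is widely used as a marker of homeostatic microglia, and its loss accompanies the disease-associated microglia (DAM) programme around plaques.

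The VEH library held 18374 cells with a median of 5971 counts and the LEM library 24392 cells with a median of 6034. The least detected of 7 microglial markers, Sall1, was found in 78.1% of VEH and 80.1% of LEM cells. The summed level of 6 neuronal markers was 0.731 and 0.523 CPM (a gene's counts per 1000000 counts of the library or gate), that of 3 astrocyte markers 2.25 and 2.37 CPM and that of 3 T cell markers 0.0688 and 0.0871 CPM in VEH and LEM. Oligodendrocyte (28.0 and 29.9 CPM), endothelial (13.2 and 10.1 CPM) and monocyte markers (8.25 and 9.80 CPM) were low beside the 39075 and 40130 CPM of the microglial markers. The most detected oligodendrocyte marker was nonetheless found in 15.4% of VEH and 17.0% of LEM cells. For the most detected endothelial marker these shares were 6.53% and 5.14%. Neutrophil markers were at 0 in VEH and 0.112 CPM in LEM. Cell names carried serial numbers only, so barcodes shared by the libraries could not be counted. Cells from mice of each sex could be told apart by Xist and 4 Y-linked genes, with 5686 female and 9025 male cells in VEH and 8409 and 11223 in LEM, and these served as separate pools of different mice within a library. The other 3663 VEH and 4760 LEM cells, with counts of both kinds or of neither, enter only the values over all cells.

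Cell states were set by gates on raw counts of marker genes that include none of the 8 members. The DAM gate required at least 3 of Cst7, Lpl, Itgax and Spp1 and a sum of at least 5 counts, and held 435 VEH cells (2.37%) and 548 LEM cells (2.25%). Clec7a, planned as the fifth DAM gene, was not analysed here. Cells without a count of these genes that met no other gate formed the homeostatic gate, with 14088 cells (76.7%) in VEH and 17582 (72.1%) in LEM. Between them lay cells with 1 DAM gene (1946 and 3365) and an intermediate gate with at least 2 (314 and 521). Further gates held 182 and 321 interferon cells, 119 and 184 mitotic cells and 1226 and 1667 chemokine cells high in Ccl3 and Ccl4. The border-associated macrophage (BAM) gate held 15 and 61 cells, and the choroid plexus gate, set by at least 100 Ttr counts, held 49 and 143 droplets. Depth moved with the gates: the median count was 5609 in VEH and 5670 in LEM for homeostatic cells but 11363 and 12116 for DAM cells.

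Some members lie side by side in the genome, and some overlap genes that could add to their counts (GRCm38, the build called mm10 in the labels; GENCODE M21). P2ry13 (chr3:59207892-59210882, minus strand) and P2ry12 (chr3:59216272-59262871, minus strand) are 5389 bases apart, and both lie inside Med12l on the opposite strand, with which P2ry12 shares 9 exonic bases. P2rx7 (chr5:122643911-122691432) and P2rx4 (chr5:122707544-122729738) follow each other on the plus strand, 16111 bases apart. Gpr34 (chrX:13632089-13640858, plus strand) lies within Cask on the minus strand, without shared exonic bases. P2ry6 (chr7:100937630-100974649, minus strand) and Entpd1 (chr19:40612366-40741602, plus strand) overlap none of the neighbouring genes examined. Adora3 (chr3:105870858-105908926, plus strand) shares 779 exonic bases with Tmigd3 on the same strand, so the split of counts between these genes is uncertain. Whether counting used strand is not given in the sources used here.

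The 250 bases before the start of P2ry12 and P2ry13 are shown because these adjacent genes were both lower in DAM cells, and those of P2rx4 because it went the other way; all are from RefSeq on GRCm38.p6, 5′ to 3′ on the gene's strand. Capitals mark AGGAAGT and GAGGAAG, overlapping cores of the purine-rich element known to bind PU.1, the lineage factor of microglia, a search chosen after the sequences and values were seen. The stretches are chr3:59262986-59263235 (minus strand) for P2ry12, chr3:59210883-59211132 (minus strand) for P2ry13 and chr5:122707294-122707543 (plus strand) for P2rx4.
P2ry12: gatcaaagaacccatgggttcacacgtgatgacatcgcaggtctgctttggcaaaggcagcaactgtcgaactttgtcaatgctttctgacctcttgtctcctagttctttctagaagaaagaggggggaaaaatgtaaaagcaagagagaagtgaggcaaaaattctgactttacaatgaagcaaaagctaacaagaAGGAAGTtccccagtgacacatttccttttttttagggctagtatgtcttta
P2ry13: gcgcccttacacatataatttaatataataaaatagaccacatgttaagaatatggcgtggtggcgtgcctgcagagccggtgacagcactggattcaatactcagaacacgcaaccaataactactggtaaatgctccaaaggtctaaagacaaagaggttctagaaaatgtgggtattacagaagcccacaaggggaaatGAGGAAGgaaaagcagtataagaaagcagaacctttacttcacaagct
P2rx4: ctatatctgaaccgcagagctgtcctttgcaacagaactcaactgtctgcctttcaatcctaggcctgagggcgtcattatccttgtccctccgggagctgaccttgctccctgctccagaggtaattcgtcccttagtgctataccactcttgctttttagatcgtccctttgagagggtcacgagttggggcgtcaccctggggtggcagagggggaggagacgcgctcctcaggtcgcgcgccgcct

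On either strand, P2ry12 held AGGAAGT from 52 bases before the start and P2ry13 held GAGGAAG from 48 bases before it, while P2rx4 held neither. Of the 6 members with a RefSeq promoter, 4 held at least 1 of these letter strings in at least 1 promoter: P2ry12, P2ry13, Adora3 and, at 1 of 2 starts, Entpd1. Among 32851 mouse promoters of this length, 10.6% held GAGGAAG, 7.69% AGGAAGT and 15.4% either. These shares are per promoter, whereas the members, with 8 promoters, were counted per gene. The strings were also picked after these sequences were seen, so the comparison is no test. P2rx7 held neither at its 2 starts.

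In DAM cells 6 members were lower than in homeostatic cells by at least 0.5 on the log2 scale of CPM in both libraries. These were P2ry12, P2ry13, P2ry6, P2rx7, Entpd1 and Adora3. Gpr34 was lower and P2rx4 higher, each by less than 0.5, so no member passed this limit upwards. The 6 genes past this limit stand beside 20.5% of 8561 genes that were lower by the same rule and 7.79% that were higher. This and later gate backgrounds for the members cover genes with a count in at least 10% of cells of either gate. Among the 7130 genes detected so in homeostatic cells, as all 8 members were, 23.3% were lower and 5.88% higher. The median gene was itself lower in the DAM gate, by a log2 ratio of -0.28 in VEH and -0.29 in LEM, so each ratio is also given relative to that median. On that scale, chosen after seeing the data, 4 members were lower (background 7.09%) and 1, P2rx4, was higher (background 13.2%). For higher genes, 1 of 8 was near the background share. The lower share of all calls went from 72.4% to 34.9%. The medians over the 8 members were -0.79 in VEH and -0.82 in LEM. In VEH the DAM levels of P2ry12, P2ry13, P2ry6, Entpd1 and Adora3 lay below those of choroid plexus droplets, and the part of free RNA in these values was not tested.

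**Figure D1:**
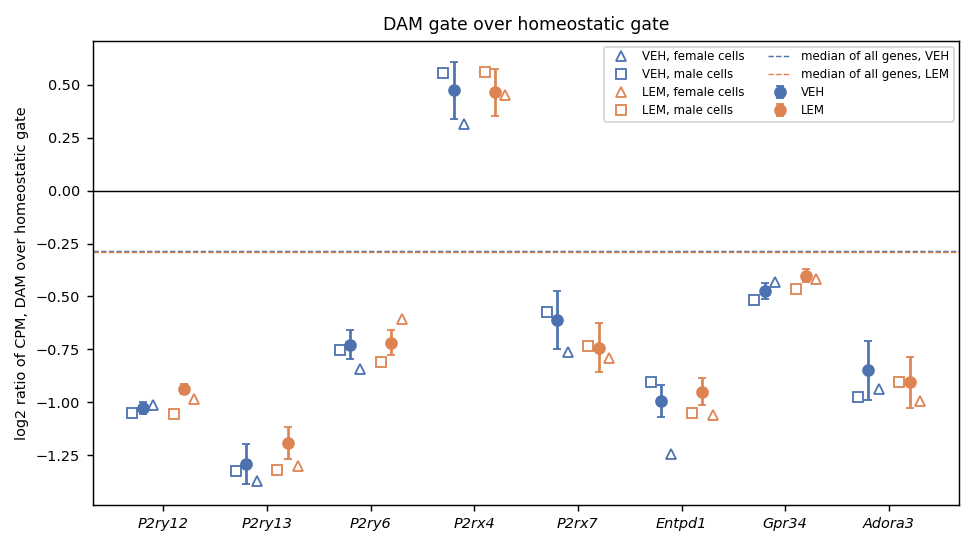
Log2 ratio of CPM in the DAM gate over the homeostatic gate for each member (y axis), by library, with 95% counting intervals on filled circles and with female and male cells of each library as open triangles and squares. Dashed lines mark the median of all genes (-0.28 in VEH, -0.29 in LEM), and P2rx4 alone of the 8 lies above 0.

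Among the ADP receptors, P2ry12 stood at 4568 CPM in VEH and 4412 in LEM in homeostatic cells and at 2239 CPM in VEH and 2306 in LEM in DAM cells. The log2 ratio was -1.03 (95% interval -1.06 to -1.001) in VEH and -0.94 (95% interval -0.96 to -0.91) in LEM, or -0.75 and -0.64 relative to the median gene. All 4 pools of one sex were lower in DAM cells, from -1.05 to -0.99. Among cells of 3000 to 10000 counts the ratios were -1.24 in VEH and -1.16 in LEM. P2ry13 differed more, from 468 CPM in VEH and 502 in LEM to 191 CPM in VEH and 219 in LEM. The P2ry13 ratio was -1.29 (95% interval -1.39 to -1.20) in VEH and -1.19 (95% interval -1.27 to -1.12) in LEM, or -1.01 and -0.90 relative to the median gene, and -1.37 to -1.30 over the 4 pools of one sex. The intervals of the ADP receptors did not overlap within either library. Med12l, in which both genes lie, went from 185 CPM in VEH and 184 in LEM in homeostatic cells to 85.5 and 85.7 CPM in DAM cells. Its ratios were -1.11 in VEH and -1.10 in LEM, and its part in the values of the ADP receptors was not tested.

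The lower P2ry12 share of counts in the DAM gate was a shift of the whole distribution rather than a small set of cells without it. With every cell thinned to 2000 counts, homeostatic cells had a median of 9 P2ry12 counts in VEH and 8 in LEM, and DAM cells a median of 4 in each. From the 10th to the 90th percentile, homeostatic cells ranged from 4 to 15 counts in VEH and DAM cells from 1 to 8. At this depth 7.48% of VEH and 5.68% of LEM DAM cells had no P2ry12 count, against 1.35% and 1.03% of homeostatic cells. As deposited, 97.9% and 98.9% of the deeper DAM cells had at least 1 count. P2ry12 counts per cell were then similar in VEH, with 371567 in 14088 homeostatic cells and 11137 in 435 DAM cells. In LEM there were 460408 in 17582 homeostatic cells and 15258 in 548 DAM cells. The ratios of CPM thus compare shares of a gate's counts, not transcripts per cell.

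**Figure D2:**
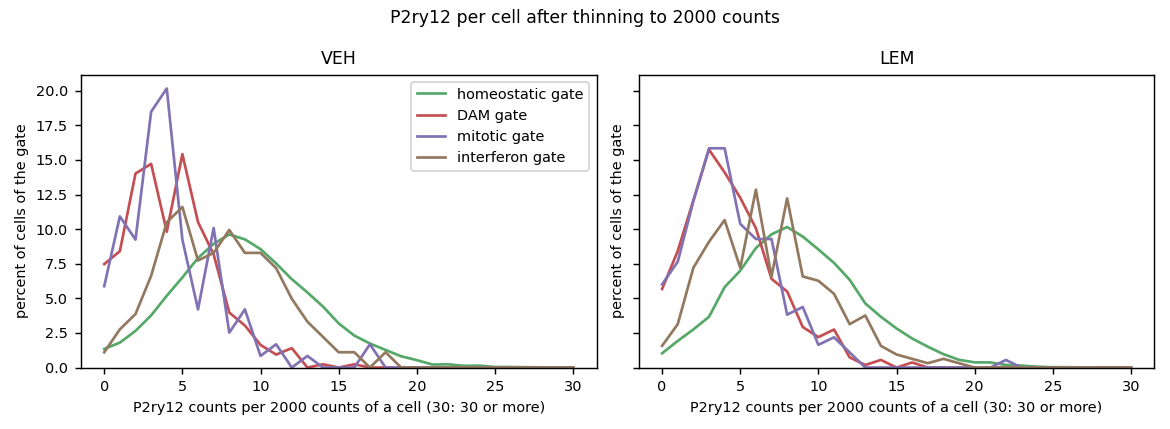
Distribution of P2ry12 counts per cell (x axis, every cell thinned to 2000 counts) as percent of the cells of a gate (y axis), in VEH and LEM. DAM and mitotic cells centre on a median of 4 counts in both libraries, homeostatic cells on 9 in VEH and 8 in LEM, and interferon cells on 7 in VEH and 6 in LEM.

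P2ry6, the UDP receptor, went from 595 CPM in VEH and 606 in LEM in homeostatic cells to 359 CPM in VEH and 368 in LEM in DAM cells. The ratios of -0.73 in VEH and -0.72 in LEM (-0.44 and -0.43 relative to the median gene) were smaller than those of the ADP receptors and, relative to the median gene, inside the limit of 0.5. Over the pools of one sex they ran from -0.84 to -0.61. Entpd1, whose product removes the phosphates of ATP and ADP at the cell surface, went from 563 CPM in VEH and 584 in LEM to 283 CPM in VEH and 302 in LEM, with ratios of -0.99 (95% interval -1.07 to -0.92) and -0.95 (95% interval -1.02 to -0.89) (-0.71 and -0.66 relative to the median gene). Its pools of one sex ran from -1.25 to -0.90. Adora3, a Gi-coupled adenosine receptor, went from 157 CPM in VEH and 165 in LEM to 87.3 CPM in VEH and 87.8 in LEM, with ratios of -0.85 in VEH and -0.91 in LEM (-0.57 and -0.61 relative to the median gene) and all 4 pools of one sex lower. Tmigd3, which shares exonic bases with Adora3, was at 2.02 CPM in VEH and 2.20 in LEM in homeostatic cells.

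As shares of a gate's counts, the ionotropic receptors went in opposite directions. Counts of P2rx7 per cell as deposited were not lower in the deeper DAM cells. In VEH there were 11335 in 14088 homeostatic and 454 in 435 DAM cells, and in LEM 16349 in 17582 and 620 in 548. P2rx7, the channel that at high ATP feeds the NLRP3 inflammasome, went from 139 CPM in VEH and 157 in LEM to 91.3 CPM in VEH and 93.7 in LEM, a ratio of -0.61 (95% interval -0.75 to -0.47) in VEH and -0.74 (95% interval -0.86 to -0.63) in LEM. Relative to the median gene these were -0.33 and -0.45, inside the limit. P2rx4, a more ATP-sensitive channel found in part on lysosomes, went from 70.7 CPM in VEH and 79.3 in LEM to 98.3 CPM in VEH and 109 in LEM. Its ratio was 0.48 (95% interval 0.34 to 0.61) in VEH and 0.47 (95% interval 0.35 to 0.57) in LEM, just inside the limit, and 0.76 and 0.76 relative to the median gene. P2rx4 was higher in all 4 pools of one sex, from 0.32 to 0.56, and P2rx7 was lower in all 4, from -0.79 to -0.57. Among cells of 3000 to 10000 counts, P2rx4 had ratios of 0.66 and 0.68. With cells thinned to 2000 counts, the mean of P2rx4 per cell was 0.141 and 0.158 in homeostatic cells and 0.180 and 0.192 in DAM cells, near the level of single counts.

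Gpr34 changed less than any other member that was lower. It stood at 1812 CPM in VEH and 1816 in LEM in homeostatic cells and 1305 CPM in VEH and 1374 in LEM in DAM cells. The ratios of -0.47 in VEH and -0.40 in LEM were -0.19 and -0.11 once taken relative to the median gene, and the pools of one sex ran from -0.52 to -0.42. Cask, on the opposite strand, had ratios of -0.55 in VEH and -0.63 in LEM.

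Within the DAM gate, cells with at least 20 counts over 4 MHC class II genes (185 in VEH, 184 in LEM) and those below (250 and 364) were also read apart. Over the 4 pools of one sex, P2rx4 was higher than in homeostatic cells in all 4 for the high cells and in 3 for the low cells, where the remaining pool (VEH, female) gave -0.00072. P2ry12 was at 2142 CPM in VEH and 2171 in LEM in the high and 2320.1 CPM in VEH and 2384 in LEM in the low cells. P2rx4 had ratios over homeostatic cells of 0.63 in VEH and 0.51 in LEM in the high cells and 0.34 in VEH and 0.44 in LEM in the low cells. On this scale it passed 0.5 in the high cells only (background 7.99% higher), and the intervals of high and low cells overlapped within each library. Relative to the median gene P2rx4 passed in both. It was then at 0.96 in VEH and 0.85 in LEM in the high cells (background 14.4% higher). In the low cells it was at 0.57 in VEH and 0.69 in LEM (background 11.9% higher). P2ry13 was at 153 CPM in VEH and 213 in LEM in the high and 223 CPM in VEH and 223 in LEM in the low cells.

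P2ry12 was lower with each further DAM gene at 1 fixed depth, in both libraries. In cells thinned to 2000 counts, P2ry12 in VEH was at 4429 CPM with 0 DAM genes, 3471 with 1, 2209.6 with 2 and 1791 with 3 or more. In LEM the same steps were 4277, 3441, 2233 and 1950.0 CPM. At 3 or more DAM genes 7 of the 8 members were lower than at 0 in both libraries, as were 57.1% of 7526 genes. Not every member went down by steps: Entpd1 in VEH was at 559.7, 442, 263 and 321 CPM, the last with an interval from 247 to 411, but in LEM at 581, 473, 334 and 229. Gpr34 went from 1796 to 1133 CPM in VEH and from 1791 to 1250.0 in LEM. P2rx4 was at 72.4, 87.2, 112 and 122 CPM in VEH but at 80.0, 91.5, 97.0 and 92.9 in LEM, where the last value rests on 26 counts with an interval from 60.7 to 136. The cells with 3 or more DAM genes at this depth numbered 98 in VEH and 140 in LEM.

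**Figure D3:**
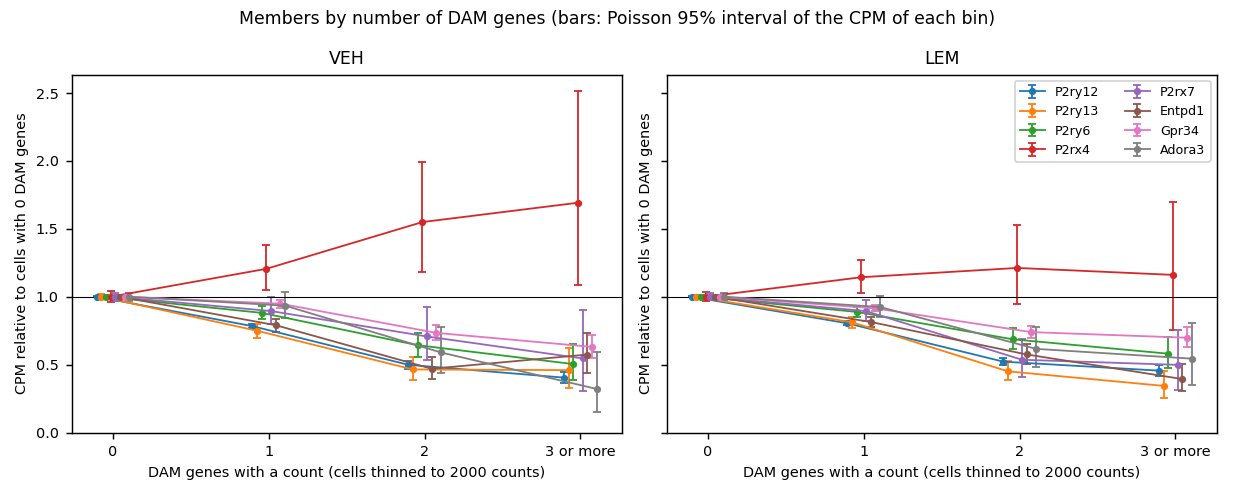
CPM of each member relative to cells with 0 DAM genes (y axis) by the number of DAM genes with a count in cells thinned to 2000 counts (x axis), in VEH and LEM, with counting intervals. P2ry12 goes from 4429 to 1791 CPM in VEH and from 4277 to 1950.0 in LEM, and P2rx4 alone stays above 1.

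The intermediate and other states were read beside the DAM gate, and the higher P2rx4 was not particular to DAM cells. In the intermediate gate P2rx4 had ratios of 0.42 in VEH and 0.31 in LEM, and its levels had intervals that overlapped those of DAM cells. In the chemokine gate the P2rx4 ratios were 0.27 in VEH and 0.28 in LEM. The intervals of these P2rx4 ratios lay above 0. In the intermediate gate P2ry12 stood at 3293 CPM in VEH and 3188 in LEM, and P2ry13 alone passed 0.5 in both libraries, with ratios of -0.61 in VEH and -0.52 in LEM (background 2.79% higher, 2.02% lower), or -0.50 and -0.44 relative to the median gene, inside the limit (background 1.18%). In cells with 1 DAM gene no member passed it (background 0.156% higher, 0 genes lower), and P2ry12 was at 4276 CPM in VEH and 4118 in LEM. No member passed it in the chemokine gate (background 1.66% higher, 0.552% lower), where P2ry12 was at 3767 CPM in VEH and 3604 in LEM. Gpr34 in the chemokine gate, at 1795 CPM in VEH and 1777 in LEM, gave ratios of -0.013 in VEH and -0.032 in LEM.

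In interferon cells no member passed 0.5 (background 4.67% higher, 3.36% lower). P2ry12 was at 3691 CPM in VEH and 3365 in LEM, with ratios of -0.31 in VEH and -0.39 in LEM. Gpr34 was close to its DAM level, at 1414 CPM in VEH and 1380.2 in LEM, with ratios of -0.36 in VEH and -0.40 in LEM over homeostatic cells, and the intervals of the interferon and DAM levels overlapped in LEM only. P2rx4 had ratios of 0.35 in VEH and 0.34 in LEM, and P2rx7 of 0.015 in VEH and -0.090 in LEM, with intervals that include 0.

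Mitotic cells gave another pattern. 6 members were lower by at least 0.5 in both libraries, P2ry12, P2ry13, P2rx4, Entpd1, Gpr34 and Adora3, and none was higher (background 11.1% lower, 22.2% higher). Among the 7130 genes detected in homeostatic cells the background was 14.3% lower and 12.9% higher. The median gene lay at 0.090 in VEH and 0.075 in LEM, and the same 6 members passed relative to it (background 13.6% lower). Entpd1 had its lowest level over the microglial gates here, at 234 CPM in VEH and 264 in LEM, with ratios of -1.27 in VEH and -1.15 in LEM. P2ry12, at 2102 CPM in VEH and 2207 in LEM, had ratios of -1.12 in VEH and -0.999 in LEM. Lower here than in DAM cells were Gpr34, at 878 CPM in VEH and 1001 in LEM with ratios of -1.04 in VEH and -0.86 in LEM, and P2rx4, at 37.1 CPM in VEH and 46.5 in LEM with ratios of -0.93 in VEH and -0.77 in LEM. For both, the intervals of the mitotic and the DAM ratios did not overlap in either library, although P2rx4 rested on 46 and 94 mitotic counts. P2rx7 was less changed, with ratios of -0.27 in VEH and -0.12 in LEM.

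**Figure D4:**
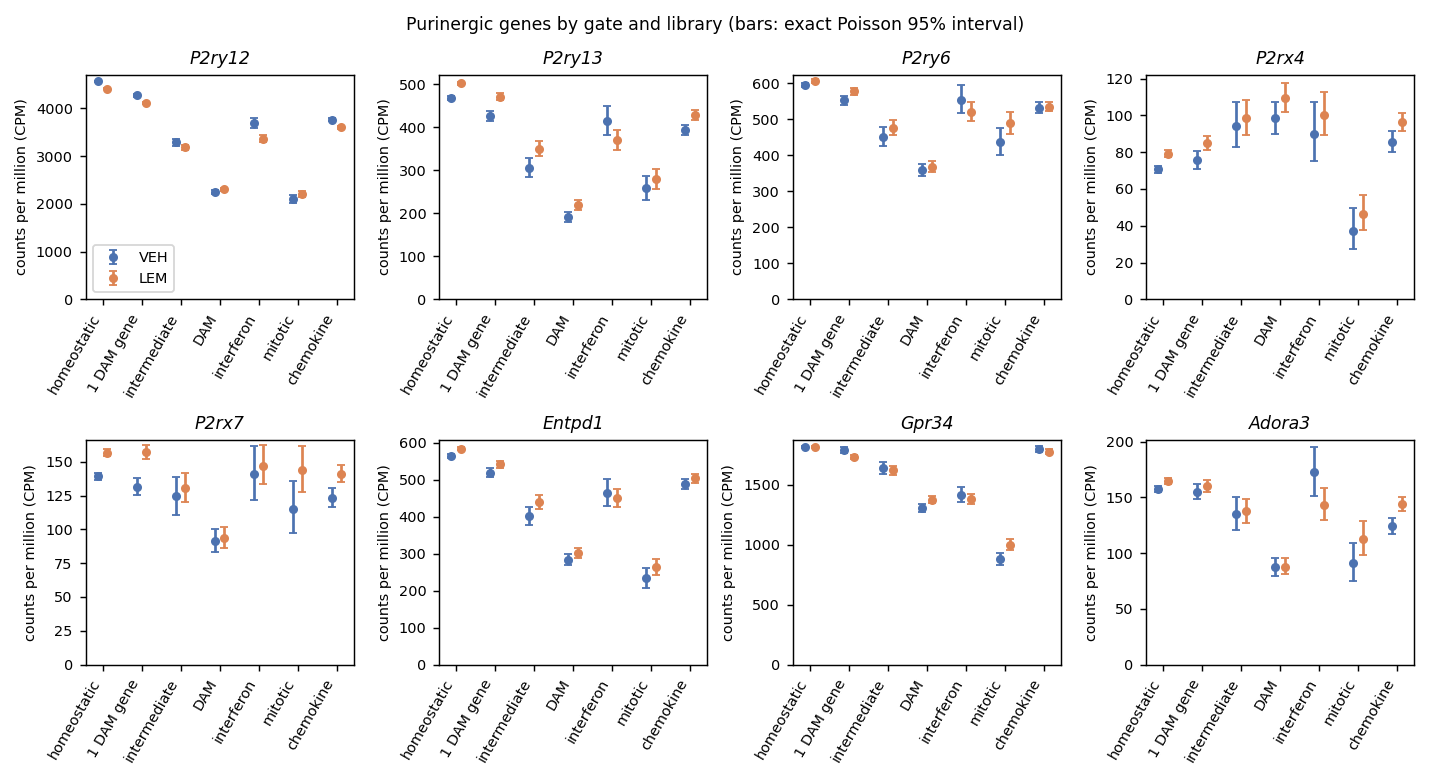
CPM of the 8 members (1 panel each, y axis from 0) in 7 gates of microglia (x axis) in VEH and LEM, with exact Poisson 95% intervals of the counts. P2ry12, P2ry13, Entpd1 and Adora3 are low in the DAM and mitotic gates, P2rx4 is high in the DAM and low in the mitotic gate, and Gpr34 has its lowest value in the mitotic gate (878 CPM in VEH, 1001 in LEM).

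In order of level, P2ry12 ran homeostatic, 1 DAM gene, chemokine, interferon and intermediate in both libraries, then DAM and mitotic. The chemokine and interferon intervals overlapped in VEH, as did the DAM and mitotic ones in LEM. Entpd1 gave the same order of the microglial gates in both libraries, with chemokine and interferon overlapping in VEH and interferon and intermediate in LEM. P2rx4 ran from DAM at the top to mitotic at the bottom, and the intervals of 5 of 6 neighbours overlapped in VEH and of 3 of 6 in LEM. Across the 14 combinations of microglial gate and library, Pearson's r of log2 CPM was 0.98 between P2ry12 and Entpd1 and 0.93 between P2ry12 and P2ry13, but 0.33 between P2ry12 and P2rx4. These points share libraries and differ in depth, so r is a description. Over all 18 combinations, the genes most like P2ry12 were Cmtm6 (0.97), Adgrg1 (0.97) and Dennd4a (0.96), and those most like P2rx4 were Cd14 (0.94), Ehd4 (0.93) and Trf (0.93). Those most like P2ry13 were Sox4, Smad7 and Lpcat2, those like P2ry6 were Was, Lcp2 and Arrb2, and those like P2rx7 were Nrros, P2ry6 and Lcp2. Entpd1 was most like Rhob, Tmem273 and E230029C05Rik, Gpr34 like Smap2, Camk1 and Abi3, and Adora3 like Bcl9, Cryba4 and F11r. Without the choroid plexus and BAM gates, a choice made after seeing the data, only Cryba4 for Adora3 stayed among the 3 nearest.

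The BAM and choroid plexus gates were read for the level of the members outside the microglial gates. BAM, few in number, had P2rx4 at 172 CPM in VEH and 175 in LEM and P2rx7 at 203 CPM in VEH and 236 in LEM, both higher than homeostatic microglia by at least 0.5 (background 8.84%), while 5 members were lower (background 8.52%). The VEH values rest on 15 cells, with 22 counts of P2rx4 and 26 of P2rx7, whose VEH ratio of 0.55 (95% interval -0.069 to 1.10) has an interval that includes 0. Among cells of 3000 to 10000 counts the P2rx7 ratios were 0.27 in VEH and 0.22 in LEM, inside the limit, as was Entpd1 in VEH (-0.11), 1 of the 5 lower members. P2ry12 in the BAM gate was at 2261 CPM in VEH and 2056 in LEM. Choroid plexus epithelium should lack these genes, yet droplets of that gate held P2ry12 at 2596 CPM in VEH and 2069.6 in LEM, in 73.5% and 67.1% of droplets at a median of 9338 and 8161 counts. The gate sets no limit on microglial RNA, so free and microglial RNA cannot be told apart here. Free RNA can make up a larger part of the counts of shallower cells, so this level is no upper bound for the homeostatic gate. In VEH it exceeded the P2ry12 level of DAM cells, 2239 CPM, although at 2000 counts 92.5% of VEH and 94.3% of LEM DAM cells had a P2ry12 count, against 74.5% and 64.7% of these droplets. In VEH the droplets also exceeded DAM cells in P2ry13 (288 against 191 CPM) and, with overlapping intervals, in Entpd1 (341 against 283 CPM), P2ry6 (364 against 359 CPM) and Adora3 (96.1 against 87.3 CPM), whereas in LEM all 8 members were lower in the droplets than in DAM cells. P2rx4 was found in 38.8% and 25.2% of choroid plexus droplets and in 31% and 34.7% of homeostatic cells, so its share as deposited is not read as expression in VEH, and nor is that of P2rx7. At 2000 counts these shares were 10.6% and 4.41% against 12.8% and 14.3%. The shares of P2rx7 were 51.0% and 32.2% against 50.3% and 55.3% as deposited, and at 2000 counts 14.9% and 12.5% against 23.7% and 26.5%.

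Over all cells, LEM and VEH libraries differed little in the 8 members. None reached a log2 ratio of 0.25 there, a limit passed by 4.38% of 7526 genes (those with a count in 10% or more of VEH or LEM cells). The members' median absolute ratio was 0.062, against 0.053 for all genes. For comparison, female and male cells of the same library differed by a median absolute ratio of 0.066 in VEH and 0.12 in LEM over the members. Within single gates some ratios of LEM over VEH were larger, but the share of all genes past 0.25 in those gates was not counted. Over all choroid plexus droplets, 49 in VEH and 143 in LEM, all 8 members were lower in LEM. There Gpr34 was at -0.49 (95% interval -0.64 to -0.35) and P2ry12 at -0.33 (95% interval -0.42 to -0.23). The intervals of P2ry6, P2rx4, P2rx7 and Adora3 in these droplets included 0. The median gene of these droplets also lay further below its homeostatic level in LEM (-0.41) than in VEH (-0.24). Among female droplets, 8 in VEH and 14 in LEM, P2ry12 (0.047), P2ry13 (0.46), P2ry6 (0.60), P2rx4 (1.05) and Entpd1 (0.21) were higher in LEM. P2rx7, Gpr34 and Adora3 were lower there, and all these female intervals included 0. P2ry13 in the MHC class II high DAM cells was at 0.48 (95% interval 0.28 to 0.68), with means per cell at 2000 counts of 0.324 in VEH and 0.386 in LEM. P2rx4 in the MHC class II low ones was at 0.27, but at 0.77 in female and 0.17 (95% interval -0.20 to 0.54) in male cells, and its means at 2000 counts were 0.183 in VEH and 0.188 in LEM. P2rx7 reached 0.26 in cells with 1 DAM gene, with means at 2000 counts of 0.256 in VEH and 0.317 in LEM. It reached 0.32 (95% interval 0.027 to 0.62) in mitotic cells, but there the means at 2000 counts were 0.235 in VEH and 0.208 in LEM. Adora3 was at -0.27 (95% interval -0.50 to -0.033) in interferon cells. In mitotic cells P2rx4 (0.33) and Adora3 (0.31) were past 0.25 with intervals that include 0.

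P2ry12 stood at 4287 CPM in VEH and 4103 in LEM, a ratio of -0.063 (95% interval -0.069 to -0.058). It was lower in LEM in both sexes, by -0.084 among female and -0.034 among male cells, and within the homeostatic gate alone (-0.050). P2ry12 was higher in LEM in 2 of the 7 microglial gates. These were the DAM gate, at 0.042 (95% interval 0.0071 to 0.078), and the mitotic gate, at 0.070 (95% interval 0.00016 to 0.14). Female cells had less P2ry12 than male cells in each library by a similar or larger amount, -0.073 in VEH and -0.12 in LEM. Its neighbour P2ry13 went the other way, at 437 CPM in VEH and 467 in LEM, a ratio of 0.095 (95% interval 0.078 to 0.11) with 0.057 among female and 0.12 among male cells.

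The P2X channels had the largest ratios of the 8 over all cells. P2rx4 stood at 74.2 CPM in VEH and 83.4 in LEM, a ratio of 0.17 (95% interval 0.13 to 0.21), and 0.20 (female cells) and 0.13 (male cells) within the sexes. P2rx7 stood at 134 CPM in VEH and 151 in LEM, a ratio of 0.17 (95% interval 0.14 to 0.20), and 0.11 (female cells) and 0.23 (male cells) within the sexes. Within the large homeostatic gate the ratios were 0.17 and 0.17, and there the mean per cell at 2000 counts was also higher in LEM, 0.141 in VEH and 0.158 in LEM for P2rx4 and 0.283 in VEH and 0.319 in LEM for P2rx7. P2rx7 was also higher in LEM, with intervals above 0 and higher means at 2000 counts, in cells with 1 DAM gene, at 0.26 (95% interval 0.18 to 0.34), and in the chemokine gate, at 0.19 (95% interval 0.093 to 0.30). Ratios of summed counts were above 0 in all 7 microglial gates, but the interval included 0 in 4 of them for P2rx4 (intermediate, DAM, interferon and mitotic) and in 3 for P2rx7 (intermediate, DAM and interferon). At 2000 counts the mean per cell was lower in LEM in 4 of the 7 gates for each, for P2rx4 in the 1 DAM gene, intermediate, interferon and mitotic gates and for P2rx7 in the intermediate, DAM, interferon and mitotic gates. These means rest on 1 random draw and few counts and have no interval, so their direction is not read as a reversal. For P2rx4 in cells with 1 DAM gene they were nearly equal, 0.1624 in VEH and 0.1620 in LEM. In the intermediate gate these means were 0.229 in VEH and 0.187 in LEM for P2rx4 and 0.286 in VEH and 0.233 in LEM for P2rx7. Within that gate the sexes went opposite ways for P2rx7, with -0.47 (95% interval -0.82 to -0.11) in female and 0.39 (95% interval 0.071 to 0.71) in male cells. With 1 pool of mice per group, treatment and the make-up of the pools cannot be told apart.

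P2ry6, Entpd1 and Gpr34 changed sign with sex, and Adora3 was higher in LEM over all cells and in male cells. Gpr34 was close to 0 over all cells, with 0.011 (95% interval -0.0031 to 0.025) in female and -0.040 in male cells. P2ry6 stood at 568 CPM in VEH and 577 in LEM, Entpd1 at 530.0 CPM in VEH and 545 in LEM, Gpr34 at 1764 CPM in VEH and 1748 in LEM and Adora3 at 149.7 CPM in VEH and 156 in LEM. P2ry6 was lower in LEM in female cells (-0.088) and higher in male cells (0.097), whereas Entpd1 was higher in female (0.15) and lower in male cells (-0.035). Adora3 had a ratio of 0.061 (95% interval 0.033 to 0.089), with 0.042 (95% interval -0.0080 to 0.092) among female and 0.095 (95% interval 0.056 to 0.13) among male cells, and of 0.030 as a mean of counts per 10000 of each cell. Gpr34, on the X chromosome, differed more by sex than by library: female over male cells gave 0.18 in VEH and 0.23 in LEM, against -0.013 for LEM over VEH. The share of cells with a count was higher in LEM for 7 of the 8 members, all but P2ry12, but also for 84.4% of the 7526 genes, and at 2000 counts for 7, all but Gpr34, against 55.5%. At 2000 counts it went from 23.3% to 25.8% for P2rx7 and from 13.5% to 14.5% for P2rx4. As deposited, where the VEH shares do not stand clear of those of choroid plexus droplets, it went from 51.7% to 56.9% and from 33.9% to 38.1%. P2ry12 was found in 98.7% of VEH and 98.4% of LEM cells as deposited and in 98.3% and 98.4% at 2000 counts.

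**Figure D5:**
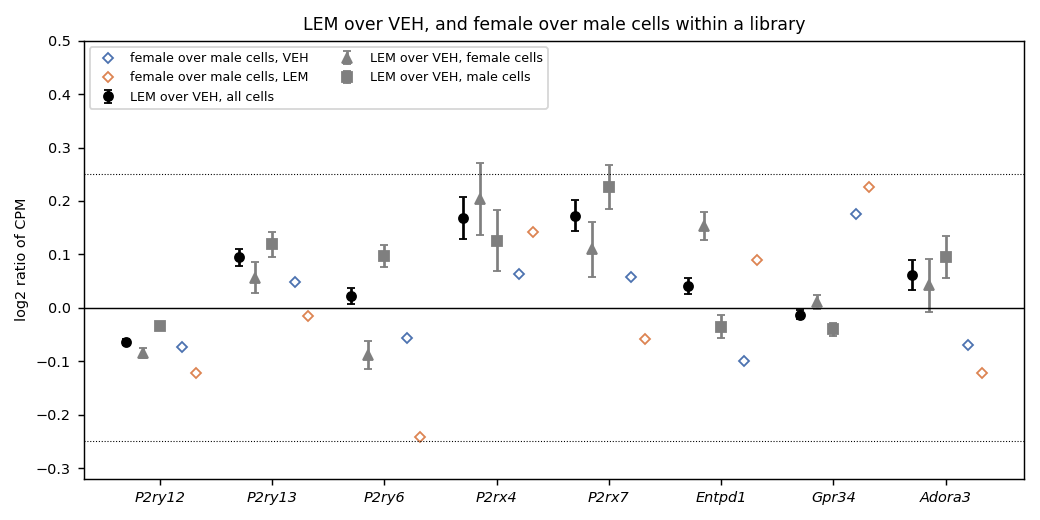
Log2 ratio of CPM (y axis) of LEM over VEH for each member in all cells, female cells and male cells, with 95% counting intervals, beside the ratio of female over male cells within each library (diamonds). Dotted lines mark the limit of 0.25, and every point lies inside them, with P2rx4 (0.17) and P2rx7 (0.17) highest over all cells.

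A wider list of 45 purinergic genes placed the members in their pathway. Between libraries 18 of the 45 passed the detection filter and none passed 0.25: 1 of 6 further P2Y genes, none of 5 P2X genes or 3 adenosine receptors, 1 of 11 genes of nucleotide hydrolysis, 3 of 6 of adenosine handling and 13 of 14 of coupling and effectors were tested. Nearest to the limit was Pycard, the inflammasome adaptor, at 177 CPM in VEH and 209 in LEM (ratio 0.24), with ratios of 0.57 among female and -0.00022 among male cells. P2ry1, P2ry4, P2ry10, P2rx2 and Entpd8 had at most 1 count in either library. Nt5e (CD73), which turns AMP into adenosine, had 23 counts in VEH and 17 in LEM.

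For the gates, the wider list was counted over the 18 genes with a count in at least 10% of homeostatic cells, a choice made after seeing the data, so that no gene enters through the gate in which it is high. In DAM cells 1 of the 18 was higher and 7 were lower by at least 0.5 in both libraries (background of 7130 genes so chosen 5.88% higher, 23.3% lower). Gnas, the Gs α subunit that raises cAMP, was higher, at 1981 CPM in VEH and 2053 in LEM against 769 CPM in VEH and 743 in LEM, with ratios of 1.36 in VEH and 1.47 in LEM. Lower were P2ry10b, the adenosine handling genes Pnp (-0.95 in VEH and -0.86 in LEM), Slc29a1 and Slc29a3 (-0.78 in VEH and -0.79 in LEM), the arrestins Arrb1 (-1.02 in VEH and -1.01 in LEM) and Arrb2, and the pyroptosis effector Gsdmd (-0.71 in VEH and -0.78 in LEM). Relative to the median gene, Pnp, Slc29a3 and Arrb1 were lower and Gnas was higher (background over genes detected in either gate 7.09% lower, 13.2% higher). Enpp1, which cleaves ATP to AMP and pyrophosphate, entered only through the DAM gate and is not counted, at 16.7 CPM in VEH and 16.0 in LEM against 6.64 CPM in VEH and 7.20 in LEM. Adora1, below the detection filter and named after its values were seen, was at 0.762 CPM in VEH and 0.757 in LEM in homeostatic cells and at 7.64 CPM in VEH and 10.4 in LEM in DAM cells, on 38 and 69 counts, the opposite direction to Adora3.

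In mitotic cells 2 of the 18 were higher, Slc29a1 and Gna11, and 3 lower, Nlrp3, Casp1 and Gsdmd, shares near those of all genes so chosen (background 12.9% higher, 14.3% lower). In interferon cells none was higher and Arrb1 was lower (background 2.61% higher, 3.77% lower). Gnas alone passed 0.5, upwards, in the intermediate gate (background 1.82% higher, 2.29% lower) and in the chemokine gate (background 1.02% higher, 0.631% lower). None of the 18 passed in cells with 1 DAM gene (background 0.0561% higher, 0 genes lower). Entpd5, Enpp1, Adk and Panx1 in mitotic cells and Enpp4 in interferon cells were higher too but passed the filter only through those gates.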

How the data were processed

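Sorted microglia of 5 VEH and 5 LEM mice were pooled per group and profiled as 1 10x Genomics 5′ library each. The deposited counts are whole UMI counts per gene and cell, made by the authors with Cell Ranger (8.0.0, mm10 per the labels). The study's methods remove ambient RNA with SoupX and then drop cells with fewer than 500 genes, more than 20000 counts or over 2.5% mitochondrial RNA. All cells in the table met these limits. Whether the deposited values are ambient-corrected was not stated. The methods also leave out clusters high in markers of other cell types, and whether the deposited table followed that step was not stated. The table held 32285 genes and 42766 cells, and no value was other than whole.

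CPM is a gene's summed counts per 1000000 counts of the library or gated cells. Ratios have exact conditional binomial 95% intervals, CPM exact Poisson and shares Clopper-Pearson intervals. Python 3.11.15, numpy 2.4.6, scipy 1.17.1 and scanpy 1.11.5 were used, with seed 7. Gates used raw counts, each cell taking the first it met of choroid plexus, BAM (at least 2 of Mrc1, Cd163, F13a1 and Lyve1, sum at least 4), mitotic (3 of Mki67, Top2a, Ube2c, Cenpf and Hmmr, sum 5), interferon (3 of Ifit1, Ifit2, Ifit3, Rsad2 and Isg15, sum 6), DAM, chemokine (sum of Ccl3 and Ccl4 at least 20), intermediate, 1 DAM gene and homeostatic. Thinning to 2000 counts left out 1305 VEH and 1215 LEM cells. Scrublet's own threshold called 0 VEH and 3113 LEM cells, so the highest-scoring 10% of each library were marked and kept, and were left out as an alternative. The calculation of ratios and intervals was checked on simulated counts. Named were all members, wider-list genes past the fold, neighbouring genes and the 3 genes most like each member. The members and lists were chosen with earlier results of these data known. Other alternatives changed the scaling, sex, depth band, gates and detection minimum.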

Additional observations from a re-analysis of the deposited data

Results flagged for a closer look

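P2ry12 was higher in LEM than in VEH within the DAM gate, with a log2 ratio of 0.042, and lower within the homeostatic gate, at -0.050, and the difference was not tested. Female DAM cells gave -0.032 and male DAM cells -0.028, so the higher value in LEM was not seen within either sex. P2ry6 was lower in LEM among female cells (-0.088) and higher among male cells (0.097). Entpd1 was higher in LEM among female cells (0.15) and lower among male cells (-0.035). Neither difference between the sexes was tested, since each library held 1 pool of mice.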

How the results depend on the processing

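No paired analysis was possible because each group had 1 library and no result comes from a test. The count of members past 0.25 between LEM and VEH stayed 0 under all 10 alternatives run. Of 80 single-member LEM over VEH values under them, 57 moved by less than the counting interval, 20 by more and 3 changed sign: P2ry6 in female cells (-0.088), Entpd1 in male cells (-0.035) and Gpr34 in female cells (0.011). The count of members lower in the DAM gate stayed 6 under 9 alternatives and was 4 relative to the median gene, an alternative chosen after seeing the data. The count higher went from 0 to 1 (P2rx4) relative to the median gene, among cells of 3000 to 10000 counts, without marked doublets and in male cells. None of the 80 DAM values changed sign. The count of members lower at 3 or more DAM genes and the count with a higher share in LEM were 7 under each setting run, but the gene left out of the latter was P2ry12 as deposited and at 2 or more counts and Gpr34 at 2000 counts. With wider-list genes detected in either gate, 21 were counted in DAM cells (2 higher, 7 lower), 24 in mitotic cells (6 higher, 3 lower) and 20 in interferon cells (1 higher, 1 lower). The background depends on the detection minimum: 330 genes passed 0.25 at 10%, 1257 at 1% and 8120 with none, and in the DAM gate 667 higher and 1752 lower genes became 1187 and 2830 at 1%. In the BAM gate of VEH, Adora3 rested on 12 and P2rx4 on 22 counts.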
